A study of Homo sapiens with 10 samples.

Results

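The cytokines of the interleukin-6 family, their receptor chains and the STAT3 pathway they feed were followed in HuCCT1, an established human bile duct cancer line. The group was defined by name as 10 genes, the ligands IL6, IL11, LIF and CLCF1, the receptor chains IL6R, IL6ST, LIFR and OSMR, the transcription factor STAT3 and the feedback inhibitor SOCS3. It took in every probe set annotated with exactly 1 of these symbols. That gave 30 of the 54613 probe sets tested and 9 of the 19775 genes. CLCF1 was not analysed here, because no probe set carries its symbol alone. In the first group of 5 arrays, HuCCT1 cells carried a vector labelled YAPS94A. The other 5 arrays held HuCCT1 cells with an empty vector. All cells grew in the same serum-containing RPMI medium, with no cytokine or drug named in the labels. YAP1 is a transcriptional co-activator that works with the TEAD factors and is restrained by the Hippo kinases. The series title and sample labels name S94A, a change known to weaken TEAD binding, whereas the design text names S127A, a change known to make YAP1 resist Hippo inhibition. YAP1 itself was higher with YAPS94A on each of its 3 probe sets, by 0.52 to 0.60 on the log2 scale, with no overlap between groups. The level of YAP1 does not tell which form was used, and no other gene was examined for this. The vector is called YAPS94A here as on the samples. The labels do not say whether the cells were clones or a mixed population, nor that replicate arrays stand for independent cultures, and every p-value here therefore rests on a spread between arrays that may be only technical.

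IL-6, IL-11, LIF and CLCF1 are secreted ligands that share the signalling chain gp130, the product of IL6ST. IL-6 first binds IL6R, LIF recruits LIFR beside gp130, and the OSMR chain pairs with gp130 to receive oncostatin M. The complexes activate JAK kinases and STAT3, and STAT3 induces SOCS3, which shuts off the receptor. In bile duct epithelium IL-6 is known as a growth factor, and in cholangiocarcinoma cells an IL-6 loop through STAT3 is known to sustain the survival protein MCL1.

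The promoters of IL6 and IL11 are shown because both genes fell and because their start regions carry different binding letters. Each sequence runs 5′ to 3′ along the gene, from 250 bases before to 50 bases after the RefSeq start (build GRCh38.p14). IL6 lies at chr7:22726950-22727249 on the plus strand and IL11 at chr19:55370414-55370713 on the minus strand. Capitals mark exact matches to any of 5 patterns searched on both strands (N stands for any base), which were the NF-kB consensus of 10 letters, TGANTCA for AP-1, TTCNNNGAA for STAT, TTGCNNAA for C/EBP and GGAATG for TEAD.
IL6: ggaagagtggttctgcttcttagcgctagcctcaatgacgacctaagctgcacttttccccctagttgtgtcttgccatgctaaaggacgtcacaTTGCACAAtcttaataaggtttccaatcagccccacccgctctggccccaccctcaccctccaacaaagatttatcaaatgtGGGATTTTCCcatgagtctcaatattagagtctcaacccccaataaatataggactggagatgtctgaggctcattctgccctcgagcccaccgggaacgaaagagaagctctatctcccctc
IL11: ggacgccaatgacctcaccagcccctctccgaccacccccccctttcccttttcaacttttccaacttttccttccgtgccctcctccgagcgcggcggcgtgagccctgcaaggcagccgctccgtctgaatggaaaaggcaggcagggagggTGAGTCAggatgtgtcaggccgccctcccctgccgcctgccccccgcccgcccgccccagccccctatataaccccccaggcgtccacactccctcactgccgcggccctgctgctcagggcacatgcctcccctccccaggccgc
In IL6 the capitals are a C/EBP match that begins at position -155 and an NF-kB match at position -73, and no 2 matches overlap. IL11 has 1 match, to the AP-1 letters, at position -96. RefSeq windows were held for 8 of the 10 genes, not for LIF and CLCF1. These 8 genes had 11 windows, because LIFR and SOCS3 had several each. The NF-kB letters were found in 1 of the 11 windows, that of IL6, and they occur in 1.91% of all 35116 windows. The AP-1 letters were found in 3 of the 11 windows, those of IL11, IL6R and OSMR, against 7.71% of all windows. TEAD letters occurred in 3 of the 11 windows, all of them of LIFR or SOCS3, against 14% of all windows. C/EBP letters occurred in 3 of the 11 windows, of IL6, LIFR and OSMR, against 10.5% of all windows. STAT letters occurred in 2 of the 11, both of LIFR, against 7.66% of all windows. A match is a description of these letters and is no evidence that a factor binds, and a window without a match says nothing about the factor.

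The 3 measured ligands were all lower in cells with YAPS94A, IL11 most. Of the 9 genes, each read by its brightest probe set, 6 fell, 1 was raised and 2 missed the threshold (limma, Benjamini-Hochberg adjusted p under 0.05 over all genes). Over all genes 36.3% passed, 17.6% lower and 18.6% higher. Brighter genes passed more often. Of the 9887 genes above the median level, tested alone, 5509 passed. All of the 9 genes but IL6R lie above that level, and 7 of them fell in that test. The share over all genes is thus a low yardstick for bright genes, here and below. The median difference of the 9 genes was -0.30, against -0.0038 over all genes (log2, YAPS94A minus empty vector). In 5 of the 9 genes the 2 groups were fully apart, each time with YAPS94A lower, where 29.1% of all genes were fully apart and 13.8% in that direction. IL11 and LIF passed with a difference of -1 or lower, as did 1.24% of all genes.

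IL11 encodes interleukin-11, a cytokine of epithelial and stromal cells that signals through its own receptor chain and gp130. Its brighter probe set read 7.52, 7.35, 7.62, 7.42 and 7.74 on the 5 YAPS94A arrays, against 10.23, 10.31, 10.46, 10.31 and 10.41 on the empty vector arrays (log2 signal). The gap between the groups was far wider than the spread within either. The difference was -2.81 ± 0.073 (SE, adjusted p = 6.00e-11), a 7.02-fold fall, and only 50 of the 19775 genes had a more negative difference. The second IL11 probe set fell by 2.35 ± 0.071 (adjusted p = 5.37e-10 among all 54613 probe sets), or 5.09-fold, to 6.53 ± 0.070 with YAPS94A, against 8.88 ± 0.16 with empty vector (SD, n = 5 each). Both sets were thus lower on every YAPS94A array than on any empty vector array.

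LIF encodes leukemia inhibitory factor, which acts through LIFR and gp130. It read 8.35, 8.24, 8.32, 8.21 and 8.45 with YAPS94A, against 9.80, 9.59, 9.72, 9.65 and 9.81 with empty vector. The groups did not overlap, and the difference was -1.40 ± 0.058 (SE, adjusted p = 3.77e-09), a 2.64-fold fall. The 30 genes nearest to LIF in chromosome order, among genes above the median level, had a median difference of -0.29. After that shift was subtracted LIF was still lower, by -1.10 (adjusted p = 9.47e-08).

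IL6 encodes interleukin-6, the ligand that gave the family its name. Its single probe set read 9.92, 9.69, 10.16, 10.22 and 10.36 with YAPS94A, against 10.51, 10.56, 10.90, 10.97 and 10.98 with empty vector. The highest YAPS94A array thus lay just below the lowest empty vector array. The difference was -0.71 ± 0.14 (SE, adjusted p = 0.00122), a 1.64-fold fall. An exact two-sided permutation test over arrays gave p = 0.0079 for IL6, for LIF and for both IL11 probe sets, the smallest that 5 against 5 arrays can give when arrays are shuffled freely. That test ignores the array numbers. With signs flipped within the 5 same-numbered pairs, a test added after the data were seen, the exact two-sided p was 0.0625 for each of these 4 probe sets, the smallest it can give, so this form cannot pass a threshold of 0.05.

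The 3 falls differed in size as read on the brightest probe sets. The 95% intervals ran from -2.97 to -2.65 for IL11, from -1.53 to -1.27 for LIF and from -1.01 to -0.42 for IL6. No interval overlapped another. The second IL11 probe set, at -2.50 to -2.19 in the fit over all probe sets, was also below LIF. It did not overlap the first IL11 set either, though both read the same gene. Intervals that lie apart on different probe sets therefore do not show that the RNA falls differed in size. Within a group IL6 was the most variable of the 3 ligands, with SDs of 0.27 with YAPS94A and 0.23 with empty vector, against 0.094 and 0.096 for LIF.

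**Figure D1:**
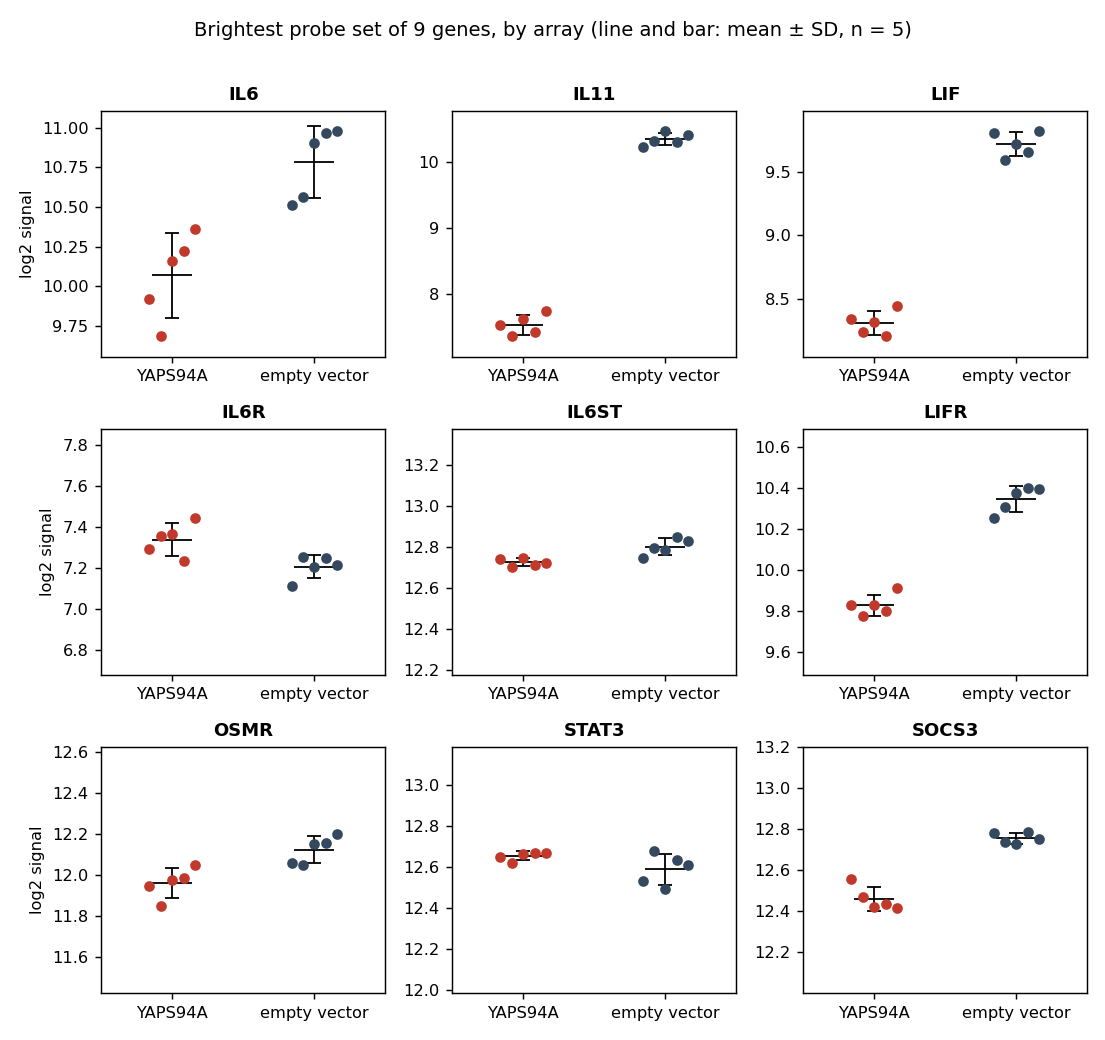
Log2 signal of the brightest probe set of each of the 9 genes on every array (points), YAPS94A on the left and empty vector on the right, with mean and SD (n = 5 each); each panel has its own y axis. IL11, LIF, IL6, LIFR and SOCS3 show no overlap between the groups, with IL11 at 7.35 to 7.74 for YAPS94A and 10.23 to 10.46 for empty vector.

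Among the receptor chains LIFR fell clearly, OSMR fell slightly, and the shared chain IL6ST and the IL-6 binding chain IL6R differed by 1.05-fold and 1.10-fold on their brightest probe sets. LIFR, the LIF-binding chain, read 9.83, 9.77, 9.83, 9.80 and 9.91 with YAPS94A, against 10.25, 10.31, 10.37, 10.40 and 10.39 with empty vector. No arrays overlapped. The difference was -0.52 ± 0.041 (SE, adjusted p = 1.13e-06), a 1.43-fold fall. All 5 LIFR probe sets fell in the fit over all probe sets, by 0.24 to 0.52, and 4 of them showed no overlap. The smallest of these falls was on a set that read 4.05 with YAPS94A and 4.29 with empty vector, below 4.73, the lower quartile of all signals.

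OSMR, the oncostatin M receptor chain, read 11.95, 11.85, 11.97, 11.99 and 12.05 with YAPS94A, against 12.06, 12.05, 12.15, 12.16 and 12.20 with empty vector. The groups overlapped by a single array, and the difference was -0.16 ± 0.046 (SE, adjusted p = 0.0173). A second OSMR probe set fell by 0.30 ± 0.074 (adjusted p = 0.00982 among probe sets) and the dimmest was at -0.039 ± 0.082 (adjusted p = 0.792). LIFR and OSMR lie near each other on chromosome 5, and their neighbours had median differences of -0.14 each. With the neighbour shift subtracted LIFR was at -0.37 (adjusted p = 3.65e-06), while OSMR was at -0.0082 and lost its call (adjusted p = 0.888). On the brightest probe sets the 95% interval of LIFR, -0.61 to -0.43, did not overlap that of OSMR, -0.26 to -0.059. Other sets of the 2 genes did overlap in the fit over all probe sets. LIFR 205876_at ran from -0.55 to -0.28 and OSMR 1554008_at from -0.46 to -0.13. The intervals thus do not separate the 2 genes.

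IL6ST, which encodes gp130, read 12.74, 12.70, 12.75, 12.72 and 12.72 with YAPS94A, against 12.75, 12.80, 12.79, 12.85 and 12.83 with empty vector. The groups touched at 1 array each, and the difference of -0.075 ± 0.033 did not pass (SE, adjusted p = 0.100). Its 95% interval ran from -0.15 to -0.0033. The other 6 probe sets of IL6ST differed among themselves. In the test of probe sets, 211000_s_at fell by 0.34 ± 0.11 (adjusted p = 0.0383). The closely similar 204863_s_at stood at -0.32 ± 0.14 (adjusted p = 0.111) and 212196_at at -0.20 ± 0.086 (adjusted p = 0.115). When same-numbered arrays were paired by a block, 204863_s_at (adjusted p = 0.0226) and 212196_at (adjusted p = 0.0247) passed as well. The remaining 3 lay between -0.088 and 0.026. The call on 211000_s_at was lost without any 1 of 7 arrays, YAPS94A 1, 2, 3 or 5 and empty vector 1, 3 or 4, with adjusted p of up to 0.0848.

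IL6R, the chain that binds IL-6, read 7.29, 7.36, 7.37, 7.23 and 7.44 with YAPS94A, against 7.11, 7.25, 7.21, 7.25 and 7.22 with empty vector. The groups overlapped. The difference of 0.13 ± 0.046 passed over all genes (SE, adjusted p = 0.0424) but not over all probe sets (adjusted p = 0.0577), and it lost its call in 13 of 21 alternatives. Both other IL6R probe sets were dimmer, at -0.058 ± 0.064 and 0.11 ± 0.058 (adjusted p = 0.579 and 0.180). With neighbours subtracted the difference was 0.040 (adjusted p = 0.566).

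**Figure D2:**
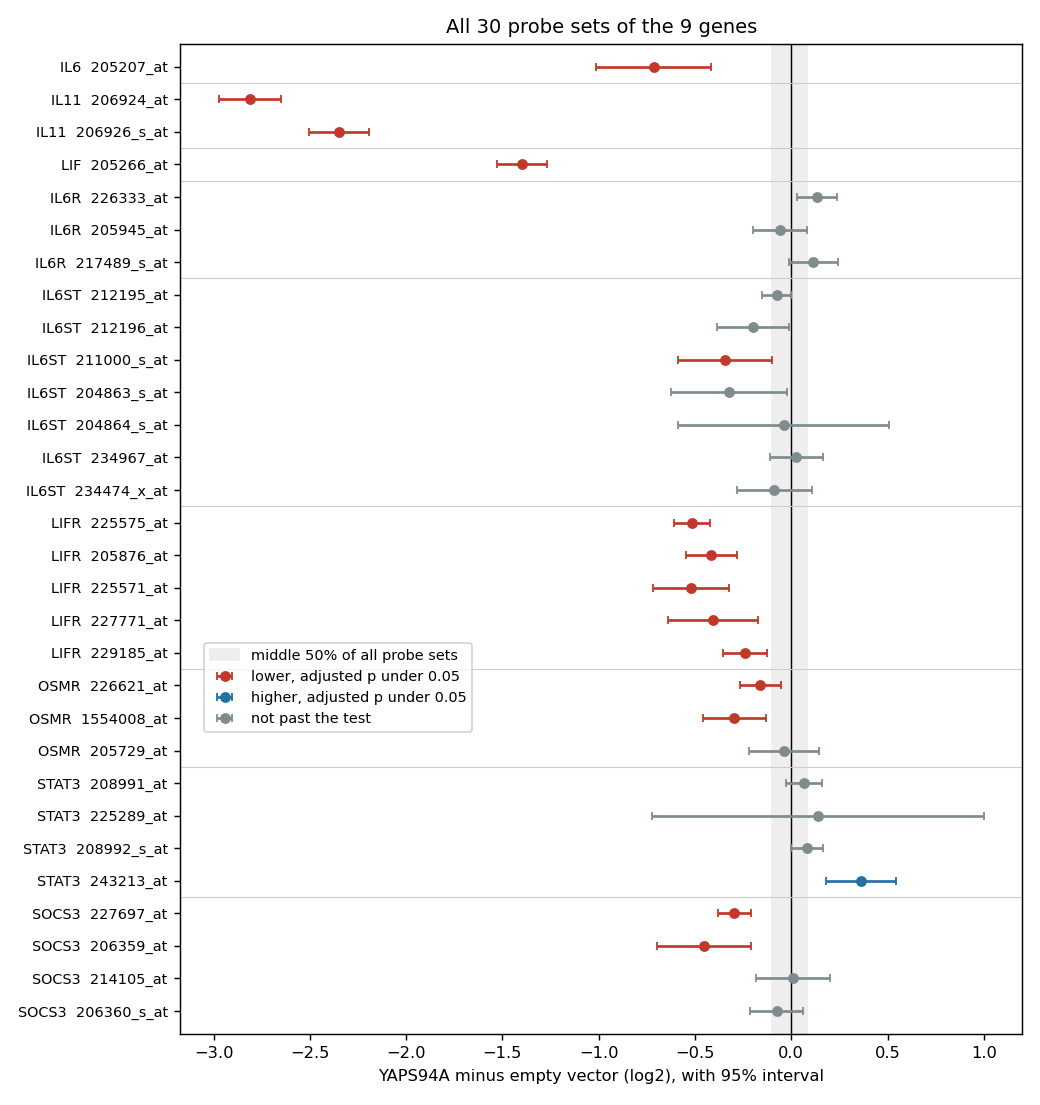
Difference between YAPS94A and empty vector (log2, x axis) for each of the 30 probe sets, with 95% intervals; colour gives the result of limma over all probe sets and the grey band holds the middle 50% of all probe sets. The 4 ligand probe sets and all 5 of LIFR lie left of 0, while IL6ST runs from -0.34 to 0.026 and STAT3 from 0.065 to 0.36.

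Of the 30 probe sets 14 fell, 1 rose and 15 missed the threshold. Over the whole array 28.6% of probe sets passed, 14.7% lower and 13.9% higher. Brighter probe sets passed more often. With only the probe sets above their median level tested, 13081 passed, against 15643 over the whole array. Of the probe sets of these genes, 13 were lower and 2 higher in that test. The share over all probe sets is thus a low yardstick for bright ones. The groups were fully apart on 10 of the 30, 9 of them lower with YAPS94A, where 23% of all probe sets were fully apart and 11.6% lower. A difference of -1 or lower that also passed was seen on the 3 probe sets of IL11 and LIF, and on 0.921% of all probe sets. By role, 4 of 4 ligand probe sets, 8 of 18 receptor probe sets and 2 of 8 probe sets of STAT3 and SOCS3 were lower. Probe sets of 1 gene share that gene's RNA and are not separate evidence.

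STAT3, the transcription factor downstream of gp130, did not pass on its brightest probe set, and its inhibitor SOCS3 fell. STAT3 read 12.65, 12.62, 12.66, 12.67 and 12.67 with YAPS94A, against 12.53, 12.68, 12.49, 12.63 and 12.61 with empty vector. These groups overlapped, the difference was 0.065 ± 0.041 (SE, adjusted p = 0.259) and its 95% interval ran from -0.024 to 0.15. Another set, 208992_s_at, differed by 0.081 ± 0.038 and missed the threshold (adjusted p = 0.154). The dimmest, 243213_at, was higher by 0.36 ± 0.083 (adjusted p = 0.00565) with no overlap, at 6.77 ± 0.16 with YAPS94A and 6.40 ± 0.13 with empty vector (SD, n = 5 each). These arrays read mRNA, so the phosphorylation that activates STAT3 was not measured.

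SOCS3, suppressor of cytokine signalling 3, is both a target of STAT3 and a brake on gp130. It read 12.56, 12.47, 12.42, 12.44 and 12.42 with YAPS94A, against 12.78, 12.74, 12.73, 12.79 and 12.75 with empty vector. Every YAPS94A array was below every empty vector array. The difference was -0.30 ± 0.037 (SE, adjusted p = 5.24e-05), a 1.23-fold fall. The second SOCS3 probe set fell by 0.46 ± 0.11 (adjusted p = 0.00858 among probe sets), while both dimmer sets, with group means of 5.59 to 6.20, were at -0.076 ± 0.062 and 0.0078 ± 0.087. Genes near SOCS3 were higher, with a median of 0.18, and SOCS3 was at -0.46 after that was subtracted (adjusted p = 2.31e-05).

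Several probe sets of these genes varied with the array number in the labels. The log2 difference between the 3′ and 5′ control probe sets of ACTB and GAPDH, a measure of how intact the RNA or cDNA was, stood at 0.68, 0.82, 0.54, 0.46 and 0.45 on YAPS94A arrays 1 to 5. On the empty vector arrays 1 to 5 it stood at 0.85, 0.68, 0.68, 0.52 and 0.48. STAT3 probe set 225289_at read 10.68, 9.80, 11.31, 11.29 and 11.68 with YAPS94A, against 10.10, 9.92, 11.29, 11.31 and 11.44 with empty vector. In both groups arrays 1 and 2 were thus well below the other three, and the spread within a group exceeded the difference between groups (0.14 ± 0.39, adjusted p = 0.850). The same set was at -0.076 with the control measure as a covariate (adjusted p = 0.824). IL6ST probe set 204864_s_at ranged from 8.61 to 9.71 with YAPS94A and from 8.63 to 9.65 with empty vector, and differed by -0.040 ± 0.25. With the covariate it was at -0.19 and passed (adjusted p = 0.0496), as did IL6ST 212196_at at -0.25 (adjusted p = 1.97e-04). IL6 was lowest on arrays 1 and 2 in both groups. The IL6 difference was -0.79 with the covariate (adjusted p = 5.30e-07), -0.70 without arrays 1 and 2 of both vectors (adjusted p = 7.77e-05) and -0.71 when same-numbered arrays were paired (adjusted p = 8.51e-06). Without arrays 1 and 2 the count of the 9 genes that fell was 6, as with all arrays, and the higher count was 0.

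**Figure D3:**
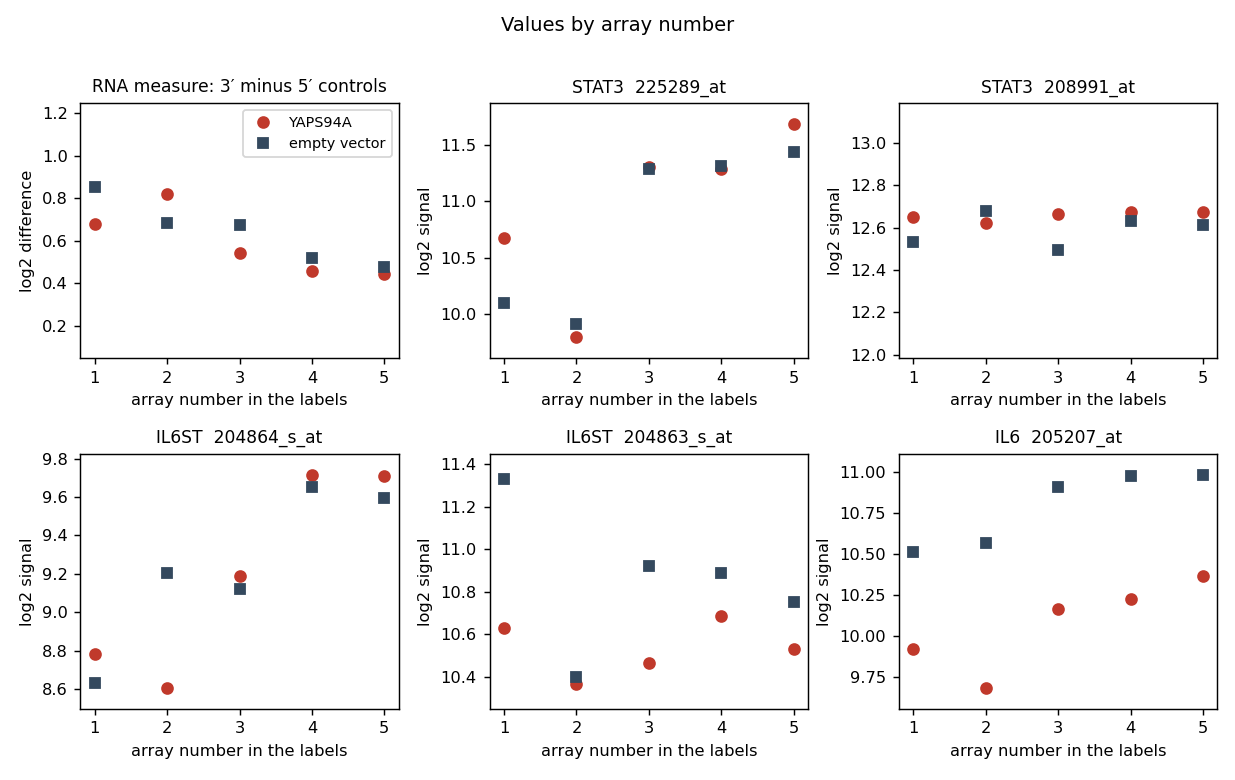
Values of the RNA measure and of 5 probe sets (y axes, log2) by the array number in the labels (x axis), YAPS94A as circles and empty vector as squares; the numbers are names and carry no time or dose. STAT3 225289_at is at 9.80 to 10.68 on the arrays numbered 1 and 2 and at 11.29 to 11.68 on the others, whereas STAT3 208991_at stays between 12.49 and 12.68.

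The other genes of the pathway, listed by role, had list medians of -0.090 to -0.0021, against -0.0038 over all genes. In limma 18.6% of all genes were higher and 17.6% lower. Of 5 other ligands and soluble partners measured, 0 were higher and 1 was lower in limma, with a median of -0.021. That gene was IL27, a subunit of interleukin-27, at -0.12 ± 0.037 (adjusted p = 0.0260) and a level of 5.44 with YAPS94A and 5.55 with empty vector, below the array medians. OSM, the neighbour of LIF on its chromosome, read 5.87 ± 0.064 with YAPS94A and 5.90 ± 0.079 with empty vector (SD, n = 5 each) and did not pass (adjusted p = 0.643). Of 4 other receptor chains 0 passed in limma, with IL11RA, the receptor chain of IL-11, at 0.28 ± 0.10 (adjusted p = 0.0544, unadjusted p = 0.0201), the only 1 of the 4 with an unadjusted p under 0.05. The IL11RA neighbours went the other way, with a median of -0.31.

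Among 12 kinases, phosphatases, inhibitors and shedding enzymes of the pathway, 2 were higher, 3 were lower and 7 did not pass, with a median of -0.0021, where 36.3% of all genes passed. SOCS2, a relative of SOCS3 best known for restraining growth hormone signalling, rose by 0.54 ± 0.078 (adjusted p = 1.56e-04), at 10.01 ± 0.16 with YAPS94A and 9.47 ± 0.11 with empty vector. PTPRE, a tyrosine phosphatase, rose by 0.31 ± 0.074. CISH, another SOCS protein, fell by 0.36 ± 0.088 on an _x_at probe set, which may cross-hybridise. The CISH neighbours had a median of -0.17. PTPN11, the phosphatase SHP2 that docks on gp130, fell by 0.18 ± 0.040, and ADAM17, which can shed IL6R, fell by 0.21 ± 0.055. The kinase genes JAK1, JAK2 and TYK2 were at 0.064, -0.17 and 0.13, and none of the 3 passed (unadjusted p = 0.135, 0.0252 and 0.353). The JAK2 neighbours had a median of -0.36, lower than JAK2 itself.

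Known targets of STAT3 and acute-phase genes went both ways, with 6 higher, 8 lower and 12 not past the test among 26 measured and a median of -0.030. Over all genes 18.6% were higher and 17.6% lower. HSPB8, a small heat shock protein, fell by 1.15 ± 0.079 (adjusted p = 3.04e-07), to 5.62 ± 0.13 with YAPS94A, against 6.77 ± 0.15 with empty vector. SERPINA3, the acute-phase protease inhibitor antichymotrypsin, fell by 0.91 ± 0.090 (adjusted p = 6.76e-06), and its YAPS94A mean of 4.47 lay below the lower quartile of signals, against 5.38 with empty vector. BCL6, a transcriptional repressor, fell by 0.36 ± 0.065. C4BPB, a chain of the complement regulator C4b-binding protein, rose by 0.31 ± 0.030 (adjusted p = 6.84e-06). MCL1, the survival gene named above, was lower by -0.21 ± 0.046 (adjusted p = 0.0033) and PIM1, a survival kinase gene, was higher by 0.67 ± 0.14 (adjusted p = 0.0028).

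Among 19 measured regulators of IL6 transcription and of IL6 mRNA decay, 2 were higher, 8 were lower and 9 did not pass, with a median of -0.090, where 18.6% of all genes were higher and 17.6% lower. JUN, a subunit of AP-1, fell by 0.60 ± 0.046 (adjusted p = 8.16e-07), at 10.45 ± 0.076 with YAPS94A and 11.05 ± 0.062 with empty vector. NFKBIA, an inhibitor and target of NF-kB, fell by 0.43 ± 0.077 and NFKBIZ, a nuclear cofactor needed for IL6 induction in mouse cells, by 0.33 ± 0.062. The list's rises were ATF3, a stress-induced factor known to repress IL6 in mouse macrophages, at 1.07 ± 0.040 (adjusted p = 1.73e-09), and RELA, an NF-kB subunit, at 0.28 ± 0.069. The RELA neighbours had a median of 0.21. NFKB1, another NF-kB subunit, fell by 0.32 ± 0.064 (adjusted p = 0.00171), with the groups fully apart. Also lower were RC3H1 (-0.29 ± 0.088), CEBPB (-0.26 ± 0.057), RC3H2 (-0.15 ± 0.048) and HNRNPD (-0.11 ± 0.033). The list mixes genes known to raise IL6 with genes known to lower it, so its counts and median have no direction for IL6. The part of these genes in the fall of IL6 was not tested. CEBPB, CEBPD and FOS belong to both this list and the list of STAT3 targets.

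**Figure D4:**
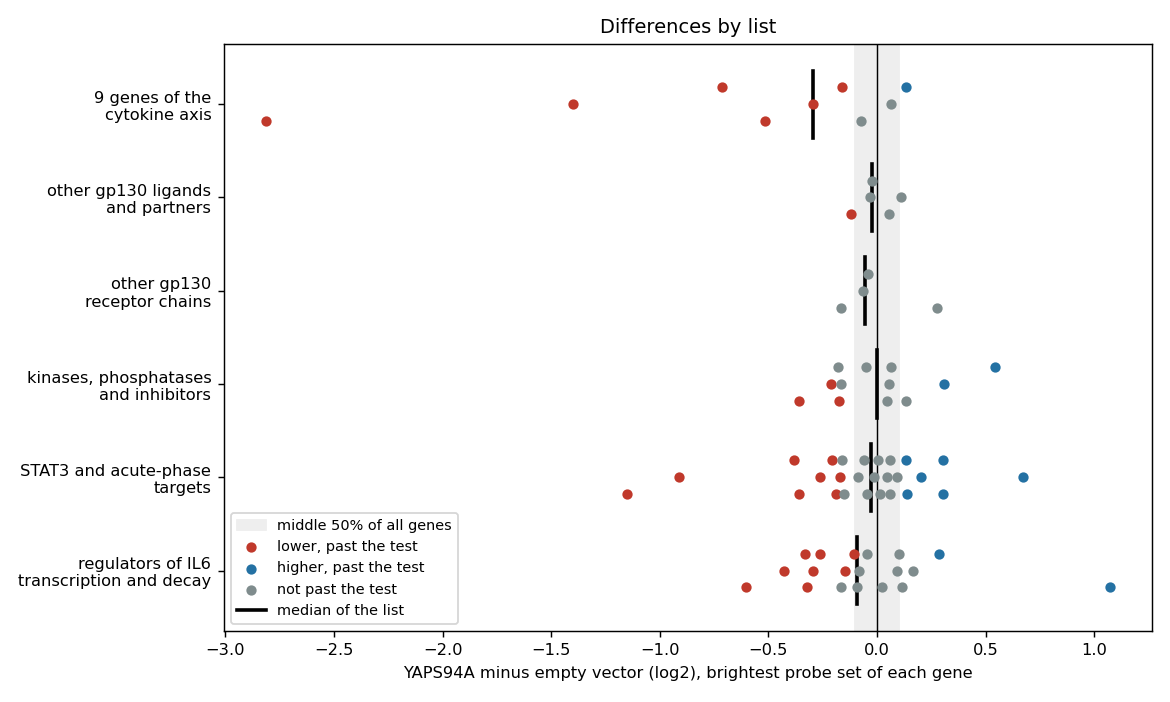
Difference between YAPS94A and empty vector (log2, x axis) for the 9 genes and for each list of other pathway genes, 1 point per gene, with the list median as a black bar and the middle 50% of all genes in grey. The median is -0.30 for the 9 genes and lies between -0.090 and -0.0021 for the other lists.

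The genes with the profile closest to IL11 over the 10 arrays, by the root mean square gap between centred log2 values among 9887 genes above the median level, were ANXA10 (0.135), CXCL1 (0.142) and HBE1 (0.150). ANXA10 is an annexin, CXCL1 a neutrophil-attracting chemokine and HBE1 an embryonic globin gene. Their differences were -2.85 ± 0.056, -2.94 ± 0.043 and -2.96 ± 0.085. Closest to LIF were ADAMTS6 (0.119), PKIA (0.120) and TPM2 (0.124), which encode a secreted metalloprotease, an inhibitor of protein kinase A and a tropomyosin. They differed by -1.37 ± 0.057, -1.38 ± 0.058 and -1.26 ± 0.048. These lists describe like values on the same arrays and carry no test. Genes chosen by this gap must have a difference near that of IL11 or LIF.

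The labelled cell type was checked against marker genes. Over all genes 36.3% passed, 18.6% higher and 17.6% lower, and the marker counts below stand beside these shares. The 7 bile duct and epithelial markers had means of 12.65 to 14.30, and 5 of them were higher with YAPS94A, KRT8, KRT19 and CDH1 by 0.33, 0.23 and 0.17. Of 7 leukocyte markers measured, LYZ alone passed (-1.48 ± 0.12), and the summed linear signal of the list was 263 to 278 with YAPS94A and 333 to 364 with empty vector. LYZ itself read 5.42 with YAPS94A and 6.90 with empty vector, and the list median was -0.023. Of 8 fibroblast markers LUM alone passed (2.67 ± 0.088), and the sums were 2239 to 2616 with YAPS94A and 936 to 1115 with empty vector. LUM itself read 10.70 with YAPS94A and 8.04 with empty vector, and the list median was -0.0072. A sum can move through a single gene, so the leukocyte and fibroblast sums do not show a shift of the whole list. PTPRC, which marks leukocytes, read 5.18 with YAPS94A and 5.25 with empty vector, under the array medians of 6.25 to 6.28. Fibroblast collagen genes were uneven, with COL1A1 at 8.71 with YAPS94A and 8.83 with empty vector, above those medians, and COL1A2 at 5.23 in both. Of 7 endothelial markers CLDN5 alone passed (-0.16), with sums of 213 to 243 and 231 to 242, YAPS94A before empty vector. The CLDN5 neighbours had a median difference of -0.16 as well. Of 6 hepatocyte markers 0 passed in limma (0 at an unadjusted p under 0.05), with sums of 334 to 368 and 329 to 344 in the same order. The part of these markers in the cytokine results was not tested. In bulk RNA, fewer cells expressing a gene and less RNA per cell cannot be told apart.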

How the data were processed

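Total RNA of 10 HuCCT1 samples was amplified, labelled with biotin and read on Affymetrix arrays, per the labels' protocols. The deposited values are log2 signals of 54675 probe sets, from 2.86 to 14.43; the log base is inferred from that range, and the sources used here do not say how the authors summarised or normalized them. They were used without further normalization. Arrays give no counts, and with no detection calls the precision rests on 5 arrays per vector.

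GEO's platform table gave the gene names, and RefSeq (GRCh38.p14) brought old symbols up to date. Of them 41097 had 1 symbol, 1801 several and 11777 none, and 41043 of the 41097 matched RefSeq. Tests excluded the 62 controls. Each gene took its probe set with the highest mean. The vectors were compared with limma 3.58.1 in R 4.3.3 (lmFit and eBayes, no covariate, two-sided), once over genes and once over all probe sets, each with Benjamini-Hochberg adjustment and a threshold of 0.05. The fits were tested on simulated data.

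The 10 genes and the lists were chosen with earlier results of these data known. Named genes were all 10 genes, up to 4 genes with the smallest p among those past the test in each pathway list, up to 3 markers a list, YAP1, and the 3 closest genes to each gene that changed by at least 1 log2 unit. ADAM17, RELA, NFKB1, MCL1, PIM1, OSM, IL11RA, JAK1, JAK2, TYK2, PTPRC, COL1A1 and COL1A2 were named after their values were seen. So were RC3H1, RC3H2, CEBPB and HNRNPD. Both vectors share the numbers 1 to 5. Across genes, the residuals of arrays with 1 number correlated at 0.102 to 0.590, above 0.1 in 5 of 5 pairs. The numbers were taken to pair the arrays only in the block fit and the exact test within pairs. The main fits, with their SEs, intervals and adjusted p, left the arrays unpaired. The labels state no shared batch, so the pairing rests on these correlations, and only 4 of 10 arrays correlated best with their own number. No 2 arrays held identical values. Alternatives were 2 renormalizations, 2 filters on dim features, an intensity trend, array weights, the block, an RNA quality covariate, each array left out, other ways to represent a gene, subtraction of the neighbour median and, added after the data were seen, arrays 1 and 2 left out and an exact test within pairs.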

Additional observations from a re-analysis of the deposited data

How the results depend on the processing

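IL6, IL11, LIF, LIFR and SOCS3 kept their direction and their call in 22 of 22 alternatives each. Their ranges were -0.79 to -0.62, -2.86 to -2.58, -1.43 to -1.10, -0.54 to -0.37 and -0.46 to -0.20. The count of genes that fell ranged from 5 to 7. OSMR lost its call with the neighbour median subtracted, and in the fit over all probe sets its brightest set also lost it without any 1 of 5 arrays (YAPS94A 1 or 2, empty vector 3, 4 or 5), with adjusted p up to 0.0624. IL6R, the only gene higher in the main comparison, lost its call, which left 0 genes higher, under quantile normalization, with array weights, with the intensity trend, in the mean of all probe sets, with the neighbour median subtracted and without arrays 1 and 2. The count was also 0 above the median level, where IL6R is not tested. It was 0 to 1 when 1 array was left out, 0 without YAPS94A array 2, 3 or 5 or empty vector array 1, 3, 4 or 5. The probe sets higher numbered 2 with arrays centred on their median and above the median level, and 1 to 2 when 1 array was left out (2 without YAPS94A array 4 or 5). IL6ST passed on its brightest probe set with the RNA quality covariate (-0.083), array weights (-0.083), the intensity trend (-0.075) and above the median level (-0.075), with adjusted p from 0.024 to 0.482 over its alternatives.

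Among the 9 genes and 30 probe sets, the replicate block changed the calls of IL6ST probe sets 204863_s_at and 212196_at alone. It left 6 genes lower and 1 higher, and 16 probe sets lower. In the pathway lists it gave 13 genes higher and 20 lower, against 10 and 19 without it, and over all genes 8154 calls against 7172. The sign turned, without a call, for STAT3 225289_at (-0.076) and SOCS3 214105_at (-0.0087) with the RNA quality covariate, and for IL6ST 204864_s_at (0.081) without arrays 1 and 2. When 1 array was left out, these 3 ranged from -0.085 to 0.43, from -0.037 to 0.079 and from -0.19 to 0.11, IL6ST 234967_at from -0.0083 to 0.060 and OSMR 205729_at from -0.089 to 0.020. The causes were not tested. With 1 more free base in the NF-kB consensus, 2 genes had a match in place of 1. Array medians and quartiles do not show how far background compresses dim probe sets.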
